A study of Nothobranchius furzeri with 16 samples.

Results

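Of the 26739 genes counted in brains of the annual killifish Nothobranchius furzeri, 35 met a rule for genes lower in the strain GRZ than in the strain MZM-0410. Of these, 32 lay lower in every GRZ library than in every MZM-0410 library, and 3 had 0 counts in GRZ and in some MZM-0410 libraries. They were chosen by their measured levels in these same libraries. The highest of the 4 GRZ values had to be at or below 0.5 times the lowest of the 12 MZM-0410 values, and the mean over MZM-0410 had to reach 1 CPM (counts of a gene per mega counts of its library). One identifier was left out of the selection. The difference between the strains is therefore a description of what was chosen, without a test.

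Total RNA of the brain was sequenced in 16 libraries of 4 groups with 4 libraries each. The groups were GRZ at 5 weeks post hatching (wph) and MZM-0410 at 5, 12 and 39 wph, taken in the study as young, adult and old fish. The labels name no transgene or drug treatment. The study's methods state that fish were killed in a fasted state at a fixed hour, but they do not name GRZ. GRZ was sampled at 1 age only, so strain, housing and any batch of the GRZ libraries cannot be told apart. The labels do not state that each library is a separate fish, though the study describes samples of single animals, and p-values measure the spread between these libraries.

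As background, GRZ is an inbred laboratory strain with a very short lifespan, and MZM-0410 is a wild-derived strain that lives longer. Teleost fish carry many duplicated genes, so that a gene with 1 copy in human may have several in killifish, and copies can differ in where and how strongly they are used.

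The members made up 0.191% of the 18335 genes with a mean of 1 CPM or more over MZM-0410. The mirrored rule, with the lowest GRZ value at least 2 times the highest MZM-0410 value, took 28 of 18321 genes, or 0.153%. A human orthologue name was held for 4 members, of which 3 are described here: PRSS48 (Nfu_g_1_017344), a serine protease; NAT1 (Nfu_g_1_014748), an arylamine N-acetyltransferase; and IFI27L1 (Nfu_g_1_007450), a relative of the interferon-inducible protein IFI27. The other 31 are known here by identifier only. A name was held for 11.4% of the members and for 28.4% of all genes at 1 CPM or more. These shares were not matched for level, and a missing name does not mean that a gene has no human orthologue. None of the named members belonged to any of 18 gene lists for brain and other cell types, immune response, transposons, detoxification, respiration, chromatin, channels and the clock. These lists hold chosen names, so a named member that is absent from a list may still share its function. The 31 members without a name could not be placed in them.

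The plot of the rule shows how far the members lay from other genes. Just inside the limit, the ratio of the highest GRZ to the lowest MZM-0410 value was 0.488 for Nfu_g_1_005767, 0.493 for Nfu_g_1_007949 and 0.496 for Nfu_g_1_010382. Just outside it, the ratio was 0.505 for Nfu_g_1_016945, 0.510 for Nfu_g_1_020070 (COLEC12, a scavenger receptor) and 0.517 for Nfu_g_1_007895. The members near the limit are thus close to genes that were not taken.

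**Figure D1:**
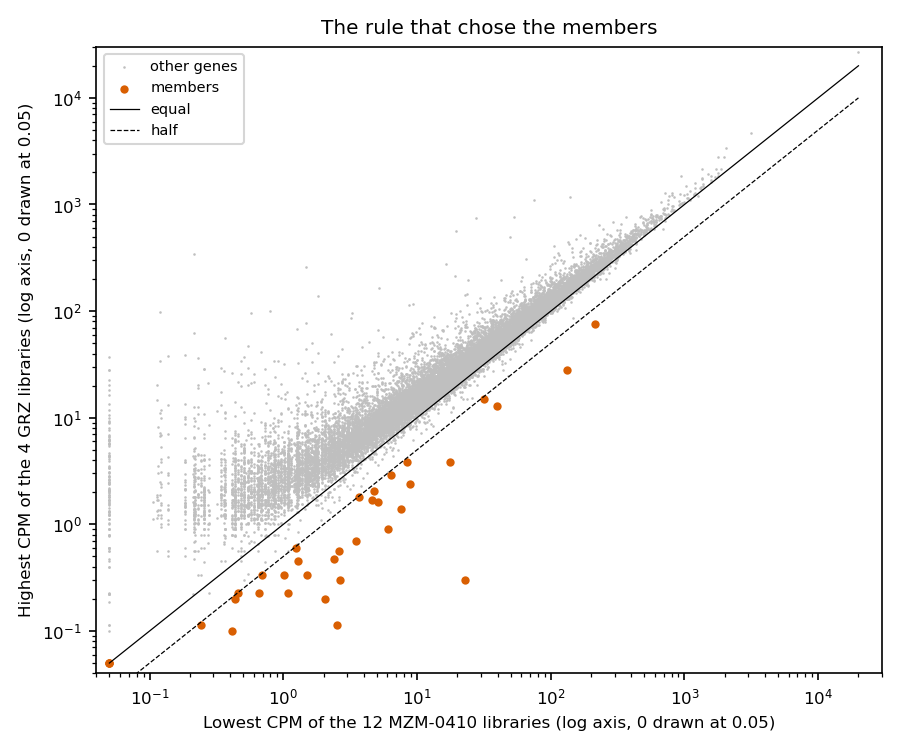
Highest CPM of the 4 GRZ libraries against the lowest CPM of the 12 MZM-0410 libraries, both on log axes, for every gene with a mean of 1 CPM or more over MZM-0410. The 35 members (orange) lie on or below the dashed line at 0.5 times, except 3 members drawn at 0 on both axes, which share 1 point.

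Depth ran from 8.80 to 10.6 M counts (M, mega) per GRZ library. Among MZM-0410 libraries, the 5 wph group held 3.93 to 8.24 M, the 12 wph group 5.48 to 9.45 M, and the 39 wph group 8.27 to 8.74 M. The GRZ libraries were thus deeper than all MZM-0410 libraries of the same age, though not than every library at 12 wph. The brain markers SNAP25 (a synaptic protein), at 828 to 1163 CPM, and GFAP (an astroglial filament), at 316 to 681 CPM, were present in all libraries. The gene held as SYT1, also a synaptic protein, was at 0 to 2.38 CPM. The summed level of 3 held skeletal muscle genes was 101 to 178 CPM in GRZ, and in MZM-0410 26.8 to 137 CPM at 5 wph, 7.13 to 116 CPM at 12 wph and 4.00 to 7.11 CPM at 39 wph. The summed level of 4 held liver genes (FGA, FGB, FGG and APOB) was 1.12 to 2.54 CPM in GRZ and 2.54 to 4.54 CPM in MZM-0410 at 5 wph. These genes did not move together. APOB was lower in GRZ, at 0.224 to 0.795 CPM against 1.02 to 2.39 CPM. FGA was higher in GRZ, at 0.301 to 0.564 CPM against 0 to 0.121 CPM, and FGB and FGG overlapped. GH1, the pituitary growth hormone, ranged from 0.216 to 521 CPM over all libraries. The part of such tissue in the members' levels was not tested, and in bulk tissue fewer cells of a type and less RNA per cell cannot be told apart.

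Summed over the 35 members, the level was 136 ± 10.7 CPM in GRZ (SD, n = 4), 773 ± 96.7 CPM in MZM-0410 at 5 wph, 791 ± 84.0 CPM at 12 wph and 884 ± 100 CPM at 39 wph. The GRZ libraries spanned 123 to 147 CPM and the lowest MZM-0410 library held 681 CPM. Nfu_g_1_016502 and Nfu_g_1_015622, with means of 314 and 166 CPM over MZM-0410, made up most of this sum. It therefore describes mainly these 2 genes. The mean of a member over MZM-0410 ran from 1.00 to 314 CPM with a median of 5.42 CPM, where the median of all genes at 1 CPM or more was 18.7 CPM. Most members were weakly counted genes: 2 reached 100 CPM, 9 lay from 10 to 100 CPM and 24 lay under 10 CPM. CPM is not corrected for gene length, so it compares a gene across libraries and not one gene with another.

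**Figure D2:**
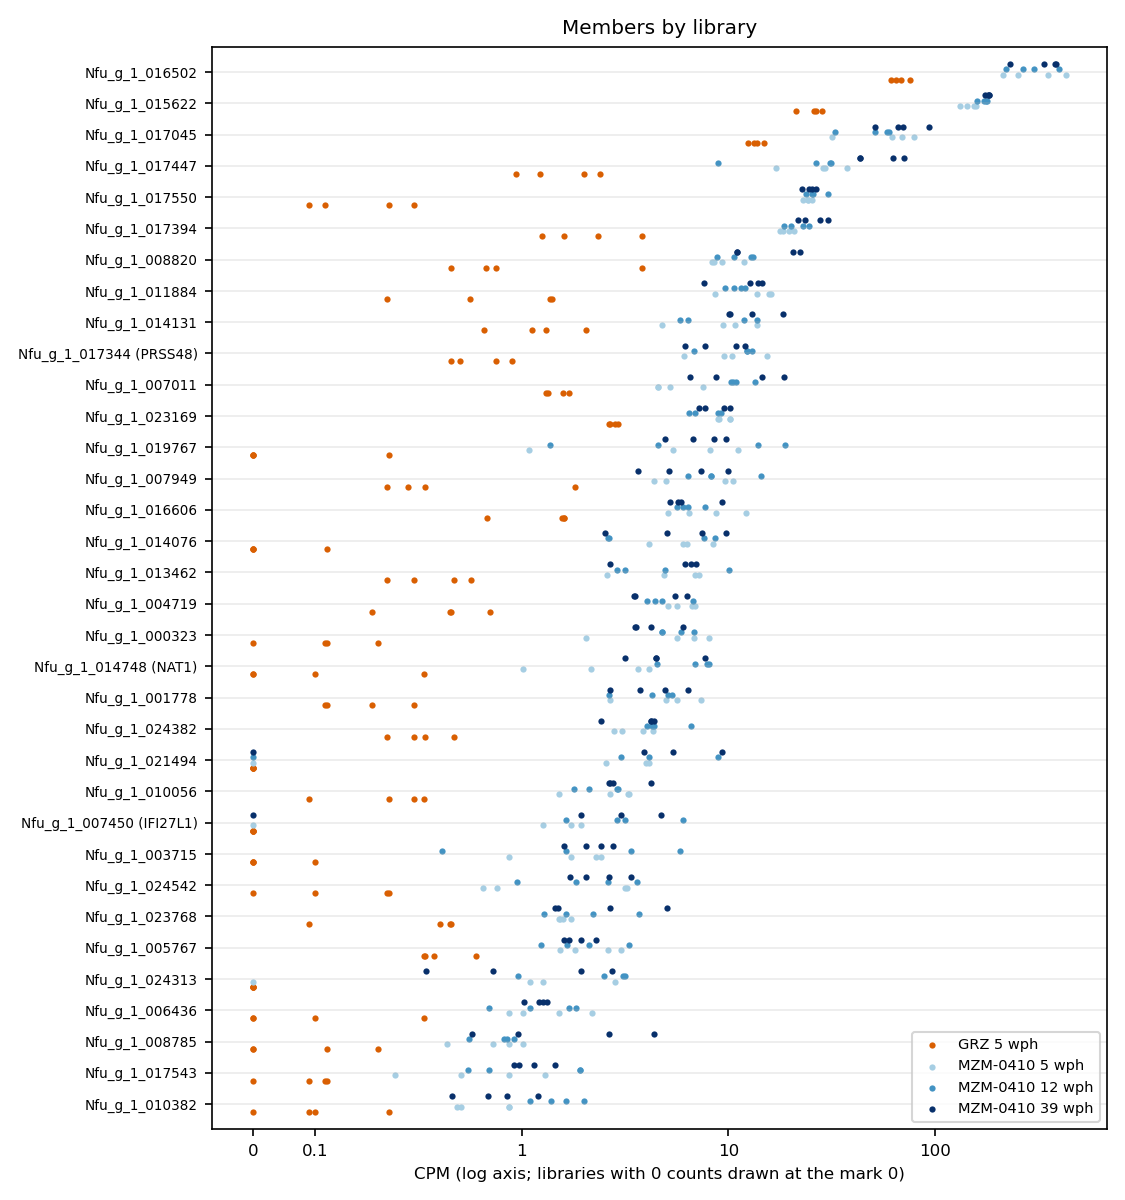
CPM (log axis) of 34 members in each of the 16 libraries, 1 row per gene, ordered by the mean over MZM-0410, with 1 point per library. GRZ points (orange) lie left of all MZM-0410 points in 31 rows, and 3 rows have GRZ and some MZM-0410 libraries together at 0.

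In the sentences that follow, values are CPM and stand in the order of the label numbers: replicates 1, 2, 3 and 4 in GRZ, replicates 11, 12, 14 and 15 in MZM-0410 at 5 wph, 1, 3, 4 and 5 at 12 wph, and 6, 8, 9 and 10 at 39 wph. A fold is the mean over the 12 MZM-0410 libraries divided by the mean over GRZ. It could be formed for 32 members and ran from 3.15 to 209 with a median of 11.9. Against MZM-0410 of the same age, 5 wph, it ran from 3.46 to 219 with a median of 10.8.

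The members with the highest levels stayed well counted in GRZ. Nfu_g_1_016502 was at 60.9, 68.1, 64.7 and 76.1 CPM in GRZ, at 354, 213, 251 and 432 CPM in MZM-0410 at 5 wph, at 399, 301, 266 and 219 CPM at 12 wph, and at 231, 337, 386 and 379 CPM at 39 wph. Its GRZ libraries were close together at 67.4 ± 6.46 CPM (SD, n = 4), its MZM-0410 libraries spread 2.03-fold, and the fold was 4.66. Nfu_g_1_015622 was at 21.1, 26.6, 26.0 and 28.3 CPM in GRZ, at 158, 154, 132 and 143 CPM at 5 wph, at 173, 159, 177 and 179 CPM at 12 wph, and at 181, 183, 174 and 183 CPM at 39 wph. Its MZM-0410 libraries lay within 1.39-fold of each other, the 5 wph libraries were the lowest of them, and the fold was 6.52. Nfu_g_1_017045 was at 12.4, 13.2, 14.8 and 13.8 CPM in GRZ, at 79.1, 62.2, 68.9 and 31.8 CPM at 5 wph, at 58.3, 32.9, 59.7 and 51.5 CPM at 12 wph, and at 51.3, 66.2, 70.3 and 93.1 CPM at 39 wph. In MZM-0410 its lowest libraries were replicate 15 at 5 wph and replicate 3 at 12 wph, which brought it near the limit of the rule, and the fold was 4.46.

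Among the named members, PRSS48 had 2 killifish genes of that name. The member Nfu_g_1_017344 was at 0.454, 0.501, 0.751 and 0.895 CPM in GRZ (4 to 8 counts per library), at 10.4, 6.07, 15.3 and 9.57 CPM in MZM-0410 at 5 wph, at 12.2, 12.3, 13.0 and 6.78 CPM at 12 wph, and at 10.8, 12.0, 7.68 and 6.18 CPM at 39 wph. The fold was 15.7, and the MZM-0410 ages overlapped throughout. The other copy, Nfu_g_1_017343, was at 2.23 ± 0.80 CPM in GRZ (SD, n = 4) and 3.84 ± 1.05, 3.21 ± 0.70 and 3.84 ± 0.81 CPM in MZM-0410 at 5, 12 and 39 wph. The member held 22.9% ± 2.71 of the counts of the pair in GRZ and 72.2% ± 5.59 in MZM-0410 at 5 wph (SD, n = 4), so that the copy with more counts was a different one in each strain. The sum of the pair was also lower in GRZ, at 2.88 ± 1.00 CPM against 14.2 ± 4.52 CPM. For this pair and that of IFI27L1 below, how well reads can be assigned to a single copy was not tested.

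IFI27L1 belongs to a family of small proteins of which IFI27 is induced by interferon. The member Nfu_g_1_007450 had no count in any GRZ library and was at 1.27, 0, 1.94 and 1.74 CPM in MZM-0410 at 5 wph, at 6.03, 3.17, 1.64 and 2.91 CPM at 12 wph, and at 3.01, 0, 4.70 and 1.94 CPM at 39 wph. A library at 0 thus occurred in MZM-0410 too, once at 5 wph and once at 39 wph. The other copy, Nfu_g_1_007454, was at 198, 49.9, 54.2 and 57.0 CPM in GRZ and 29.0, 24.1, 43.0 and 57.9 CPM in MZM-0410 at 5 wph. GRZ replicate 1 stood apart as the highest for this copy, and the strains overlapped. The member therefore held 0% of the counts of the pair in GRZ and 2.86% ± 2.01 in MZM-0410 at 5 wph (SD, n = 4).

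**Figure D3:**
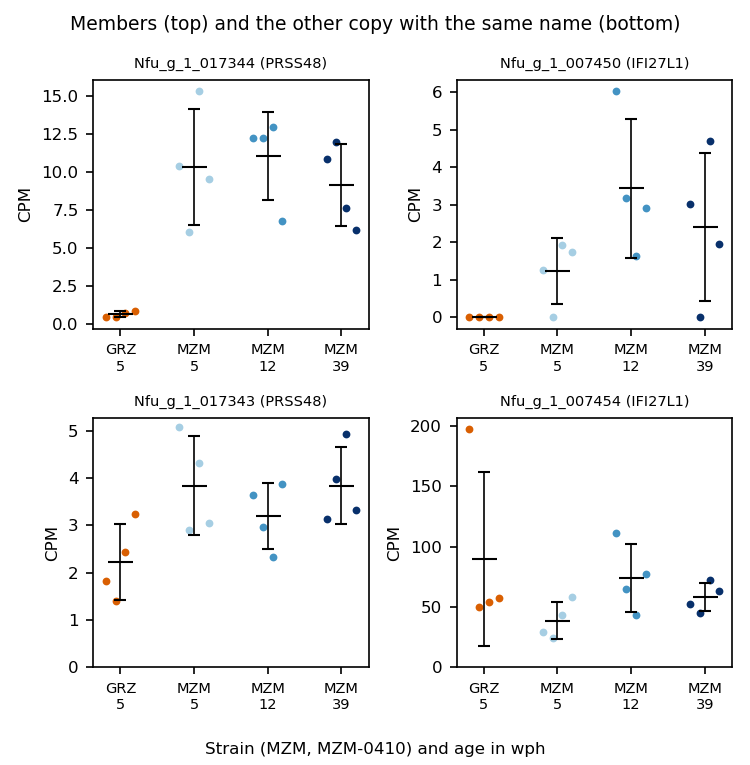
CPM (linear axes) by strain and age for the members named PRSS48 and IFI27L1 (top) and for the other gene that holds each name (bottom). Points are libraries and bars are mean ± SD with n = 4. The members have lower means in GRZ, while both other copies overlap between GRZ and MZM-0410 at 5 wph.

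In GRZ the members fell into 3 classes by raw counts. For 3 members all GRZ libraries held 0 counts, for 13 each GRZ library held at most 3 counts, and for 19 at least 1 GRZ library held more. A count of 0 allows up to 3 counts, which is 0.282 to 0.341 CPM at the depth of the GRZ libraries. These limits and the intervals given below cover counting error in GRZ only. They allow neither for the spread between libraries nor for the choice of members by low GRZ values. Of the 16 members at or under 3 counts in each GRZ library, 8 exceeded 3 counts in all 12 MZM-0410 libraries and 4 had a mean of 5 CPM or more there. The number of members above 3 counts was 14 to 17 per GRZ library and 32 to 35 per MZM-0410 library.

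Of the members with a count in all 4 GRZ libraries, Nfu_g_1_017550 had the widest gap between the strains. It had 2, 3, 1 and 1 counts in GRZ, or 0.227, 0.301, 0.0939 and 0.112 CPM, against 22.9, 24.1, 25.5 and 24.1 CPM in MZM-0410 at 5 wph, 25.6, 30.5, 25.3 and 23.7 CPM at 12 wph, and 22.8, 26.5, 24.6 and 25.5 CPM at 39 wph. The fold was 137 and rests on 7 GRZ counts, with no interval formed. The MZM-0410 libraries lay within 1.34-fold of each other at all ages. This gene was the nearest to an on and off pattern, steady in MZM-0410 and at or under the limit of 3 counts in GRZ.

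Nfu_g_1_014076 had 1 count in GRZ replicate 1 and 0 in the others. In MZM-0410 it was at 8.39, 4.13, 6.05 and 6.31 CPM at 5 wph, at 8.58, 2.65, 2.60 and 7.61 CPM at 12 wph, and at 9.76, 2.54, 7.45 and 5.03 CPM at 39 wph. Its MZM-0410 mean was 227 times the GRZ level formed from the summed GRZ counts and depth. The 95% exact Poisson interval, taken from the GRZ count alone, was 40.8 to 8979. Its MZM-0410 libraries spread 3.84-fold without an order by age.

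Nfu_g_1_019767 had 2 counts in GRZ replicate 1 and 0 in the others. It was at 11.2, 8.13, 5.40 and 1.09 CPM in MZM-0410 at 5 wph, at 4.57, 14, 1.37 and 18.8 CPM at 12 wph, and at 4.94, 6.77, 8.48 and 9.72 CPM at 39 wph. The ratio of its MZM-0410 mean to the level from the summed GRZ counts was 151, with a 95% exact Poisson interval of 41.8 to 1247. Its spread over the MZM-0410 libraries, 17.3-fold, was the widest of the members without a library at 0, and the 12 wph group held both its highest and its second lowest libraries. Nfu_g_1_003715, picked after its values were seen, had 1 GRZ count and spread 14.1-fold over MZM-0410, with 1.64, 3.39, 0.411 and 5.81 CPM at 12 wph. Both genes were thus highest in replicates 5 and 3 of that age and low in replicate 4.

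Beside IFI27L1, 2 members had no GRZ count. Nfu_g_1_021494 was at 2.54, 4.00, 0 and 4.13 CPM in MZM-0410 at 5 wph, at 0, 4.13, 3.01 and 8.86 CPM at 12 wph, and at 5.42, 9.31, 3.90 and 0 CPM at 39 wph. It was at 0 in 1 library of each age and at 2.54 CPM or more in the other 9, so the split into counted and not counted also ran within MZM-0410. Nfu_g_1_024313 was at 1.27, 1.09, 0 and 2.83 CPM at 5 wph, at 3.10, 3.17, 0.959 and 2.49 CPM at 12 wph, and at 0.723, 1.94, 0.344 and 2.75 CPM at 39 wph. Against the limit of 3 counts per GRZ library, the MZM-0410 mean was at least 12.0-fold higher for Nfu_g_1_021494, at least 7.51-fold higher for IFI27L1 and at least 5.47-fold higher for Nfu_g_1_024313. These 3 members met the rule with GRZ and the lowest MZM-0410 library tied at 0, and 32 members had at least 1 count in every MZM-0410 library.

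**Figure D4:**
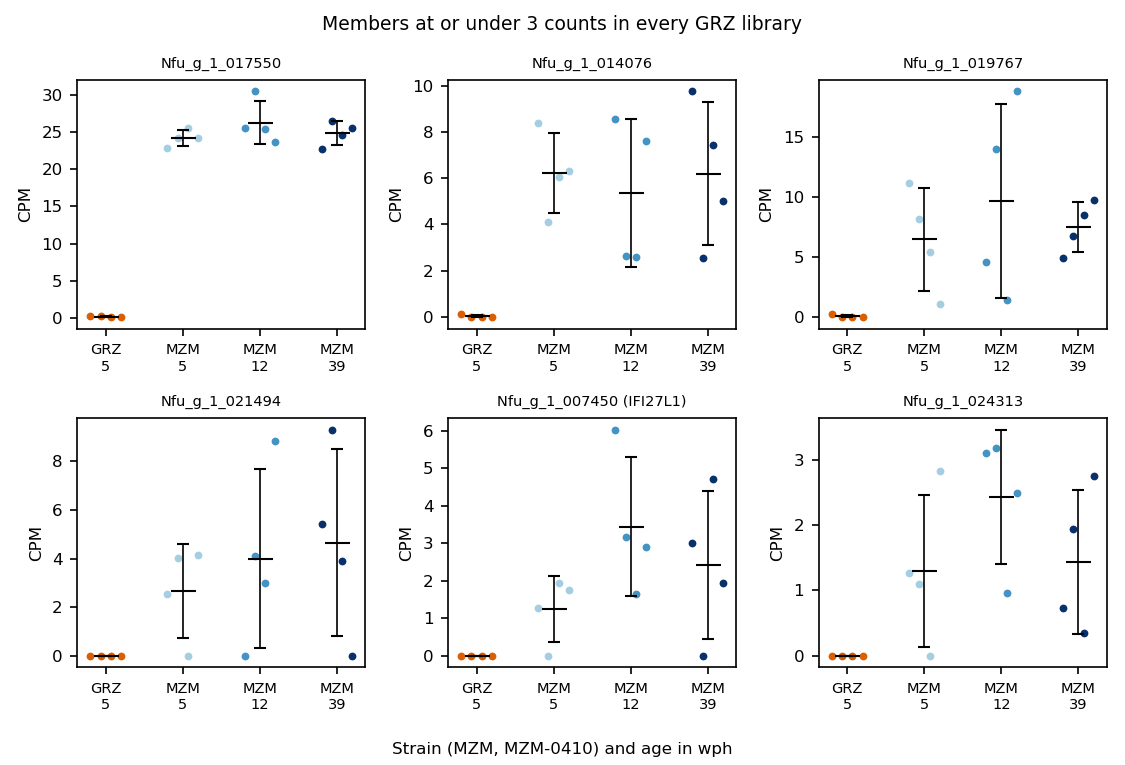
CPM (linear axes) by strain and age for 6 members with at most 3 counts in every GRZ library. Points are libraries and bars are mean ± SD with n = 4. Nfu_g_1_017550 is steady over the 12 MZM-0410 libraries, while Nfu_g_1_021494, IFI27L1 and Nfu_g_1_024313 have single MZM-0410 libraries at 0.

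NAT1 transfers an acetyl group to arylamines and is a detoxifying enzyme in human. It had 0, 1, 0 and 3 counts in GRZ, or at most 0.336 CPM. In MZM-0410 it was at 1.02, 4.13, 3.67 and 2.18 CPM at 5 wph, at 7.85, 8.04, 4.52 and 6.92 CPM at 12 wph, and at 4.46, 3.14, 7.68 and 4.46 CPM at 39 wph. The fold was 44.4 over all ages and 25.2 against 5 wph, and both rest on 4 GRZ counts, with no interval formed. No other gene with this name was held.

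The remaining 19 members lay between 1.00 and 12.2 CPM on average over MZM-0410 and between 0.0251 and 2.77 CPM in GRZ. Of these, 10 exceeded 3 counts in at least 1 GRZ library, with folds from 3.15 to 13.9, and 9 did not, with folds from 9.54 to 91.1 that rest on 9 GRZ counts or fewer. The ratio of the MZM-0410 mean to the level from the summed GRZ counts was 87.6 (95% exact Poisson interval 15.7 to 3459) for Nfu_g_1_003715 with 1 GRZ count. For the members with 3 GRZ counts it was 15.7 (5.36 to 76.0) for Nfu_g_1_008785 and 13.3 (4.54 to 64.4) for Nfu_g_1_017543. These intervals leave out the spread between libraries and the choice of members by low GRZ values. Such folds are thus less certain than even these wide limits show. For 8 of the 35 members, the 3 with a library at 0 included, some MZM-0410 library held 3 counts or fewer. Their place at or below 0.5 times every MZM-0410 library therefore rests on few reads, and for these 3 on a tie at 0.

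Among the GRZ libraries, replicate 2 was the highest for 13 of the 32 members with any GRZ count. Replicate 1 was the highest for 9, replicate 4 for 7 and replicate 3 for 3. The same split over all genes is not given here, and for members at or under 3 counts it rests on few reads. The excess of replicate 2 was large for Nfu_g_1_008820, at 3.81 CPM against 0.454, 0.751 and 0.671 CPM in replicates 1, 3 and 4. It was also large for Nfu_g_1_007949, at 1.8 CPM against 0.341, 0.282 and 0.224 CPM. Without replicate 2 the rule took 40 genes, beside 38, 37 and 44 without replicates 1, 3 and 4. Leaving out a GRZ library can only lower the highest GRZ value, so all 35 members were bound to stay. Without replicate 2, 17 in place of 16 members were at or under 3 counts in each remaining GRZ library. That number could not fall either.

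The members also varied more within MZM-0410 than other genes did. The highest library was 3.04 times the lowest in the median of the 32 members without a library at 0, and 1.69 times over 18216 genes. Low counts widen this ratio, so it was also taken by level. It was 3.93 for 21 members and 2.63 for 6350 genes from 1 to 10 CPM, and 2.11 for 11 members and 1.5 for 11582 genes from 10 to 400 CPM. These ranges are wide, so level was matched only in part. The selection used the lowest of these values, so this is a description.

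No members stood in neighbouring rows of the count table, and the closest pair was 32 rows apart. The row order carries some information on position: of 947 pairs of genes at most 5 rows apart that could be placed by symbol on the assembly NfurGRZ-RIMD1, 680, or 71.8%, lay within 1 Mb of each other. Within 5 rows of a member, 8 of 242 other genes, or 3.31%, had a GRZ mean at or below 0.5 times that of MZM-0410, beside 272 of 18057 genes elsewhere, or 1.51%. The median log2 ratio of GRZ to MZM-0410 was -0.01 in both sets.

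Whether the members change with age was tested within MZM-0410 alone, whose ages the selection did not contrast. The rule did use the lowest MZM-0410 value and the MZM-0410 mean, which limits the age changes that members can show. A member is called higher or lower where edgeR's quasi-likelihood test gave an adjusted p under 0.05, with Benjamini-Hochberg adjustment over all genes tested. Each count is set beside the share over all genes. From 5 to 12 wph 2 of the 31 members tested rose and none fell, where 4.46% of 17366 genes rose and 2.14% fell. From 12 to 39 wph 1 of 32 rose and none fell, where 3.89% of 17980 genes rose and 5.75% fell. From 5 to 39 wph 5 of 32 rose and none fell, where 12.3% of 17938 genes rose and 12.6% fell.

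At an unadjusted p under 0.05, 4 members lay higher and 0 lower in the first comparison, where 11.7% of all genes lay higher and 9.63% lower. In the second, 2 lay higher and 1 lower, beside 12.4% and 14.2% of all genes, and in the third 5 lay higher and 0 lower, beside 18.3% and 18.8%. DESeq2 also called 0 members lower in each. The median log2 fold change of the members was 0.10, 0.06 and 0.16 in these comparisons, and that of all genes -0.01, 0.00 and -0.00. The comparisons share their groups, so they are not independent. In MZM-0410, 3 of the 4 libraries at 5 wph were shallower than all others, and the summed level of the muscle genes was lowest at 39 wph. Other marker sums also differed without overlap between 5 and 39 wph. The sum of 4 microglia genes was 157 to 197 CPM at 5 wph and 220 to 265 CPM at 39 wph. That of 22 neuron genes was 5589 to 5764 CPM and 4453 to 4932 CPM, and that of 10 oligodendrocyte genes 3521 to 4115 CPM and 2120 to 2688 CPM. The sum of 13 radial glia and astroglia genes was 3171 to 3595 CPM and 2541 to 2869 CPM. That of 12 endothelium and pericyte genes was 372 to 457 CPM and 486 to 561 CPM. For 8 red blood cell genes, 1 of which was at 0 throughout, it was 103 to 265 CPM and 22.0 to 88.8 CPM. The part of depth or of these cell types in the age values was not tested.

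Nfu_g_1_007011 was at 4.58, 5.22, 7.56 and 4.57 CPM at 5 wph, at 13.5, 10.9, 10.3 and 10.5 CPM at 12 wph, and at 8.68, 14.5, 18.7 and 6.52 CPM at 39 wph, with 1.59, 1.30, 1.69 and 1.34 CPM in GRZ. All 12 wph libraries lay above all 5 wph libraries, while at 39 wph replicate 10 fell into the 5 wph range. It rose by 1.06 ± 0.18 (log2 fold change ± SE) from 5 to 12 wph, with an adjusted p of 0.00529, and by 1.16 ± 0.32 from 5 to 39 wph, with an adjusted p of 0.0199. The first call was kept without any single library. The second was lost without replicate 9 at 39 wph or replicates 11, 12 or 15 at 5 wph, with adjusted p up to 0.0565.

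NAT1 rose from 5 to 12 wph by 1.25 ± 0.32 on the log2 scale, with an adjusted p of 0.0396. The 12 wph libraries all lay above those at 5 wph. This call was lost on leaving out replicates 1, 3 or 5 at 12 wph or replicates 11, 14 or 15 at 5 wph, with adjusted p up to 0.103 and a log2 fold change of 1.02 to 1.36. From 5 to 39 wph its log2 fold change was 0.79 ± 0.37, with an adjusted p of 0.140.

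Nfu_g_1_017447 was at 37.6, 29.5, 17.1 and 28.7 CPM at 5 wph, at 31.0, 31.3, 8.91 and 26.4 CPM at 12 wph, and at 43.4, 43.3, 70.6 and 62.9 CPM at 39 wph. The 4 libraries at 39 wph were above all others, and those at 5 and 12 wph overlapped. In GRZ it was at 2.39, 2.01, 0.939 and 1.23 CPM, and the fold of 21.9 was the highest of the members above 3 counts there. It rose by 1.18 ± 0.31 on the log2 scale from 12 to 39 wph, with an adjusted p of 0.0359, and by 0.99 ± 0.22 from 5 to 39 wph, with an adjusted p of 0.00622. The former was lost without replicates 3 or 5 at 12 wph or replicates 6, 9 or 10 at 39 wph, with adjusted p up to 0.0929, and the latter was kept without any single library.

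Nfu_g_1_015622, whose levels are given above, rose by 0.32 ± 0.06 on the log2 scale from 5 to 39 wph, with an adjusted p of 0.00378. This was a small and even rise, with all 39 wph libraries above those at 5 wph. From 5 to 12 wph its log2 fold change was 0.25 ± 0.07 with an adjusted p of 0.0545. DESeq2 and the fit on all 12 MZM-0410 libraries put it past the threshold, with adjusted p of 0.0292 and 0.0285.

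Nfu_g_1_017394 was at 19.6, 18.4, 17.7 and 20.7 CPM at 5 wph, at 24.7, 23.1, 20.0 and 18.7 CPM at 12 wph, and at 30.5, 23.6, 27.7 and 21.6 CPM at 39 wph, with 1.25, 3.81, 1.60 and 2.35 CPM in GRZ. It rose from 5 to 39 wph by 0.46 ± 0.12 on the log2 scale, with an adjusted p of 0.0153, and these groups did not overlap. Nfu_g_1_008820 was at 12.0, 8.37, 9.29 and 8.48 CPM at 5 wph, at 10.6, 13.2, 8.77 and 12.9 CPM at 12 wph, and at 22.3, 11, 20.6 and 11 CPM at 39 wph. It rose by 0.81 ± 0.25 from 5 to 39 wph on the log2 scale, with an adjusted p of 0.0363. The old group split into replicates 6 and 9, which were high, and replicates 8 and 10, which were within the 5 wph range. The call was lost without replicates 6 or 9 at 39 wph or replicates 12, 14 or 15 at 5 wph, with adjusted p up to 0.102.

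**Figure D5:**
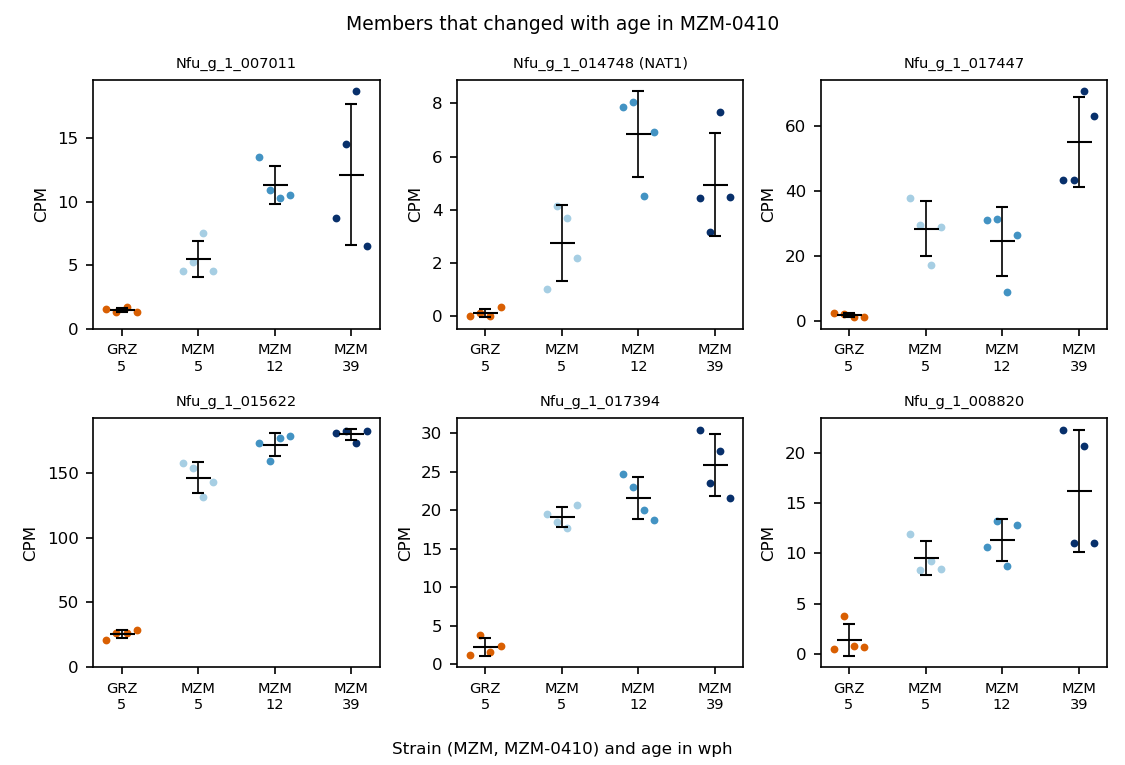
CPM (linear axes) by strain and age for the 6 members that rose with age in MZM-0410 in at least 1 comparison. Points are libraries and bars are mean ± SD with n = 4. The 39 wph libraries of Nfu_g_1_017447 lie above all others, and GRZ lies below MZM-0410 at each age in all 6 panels.

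The other members did not pass the threshold in any age comparison. Over all 35, the means of the 3 ages lay within 2-fold of each other for 29, with a median ratio of 1.35 and a highest of 2.80 for Nfu_g_1_008785. That gene was at 0.573 to 4.35 CPM at 39 wph and was not tested at its counts, like Nfu_g_1_017543 and Nfu_g_1_010382. Nfu_g_1_006436 was not tested from 5 to 12 wph. From 5 to 39 wph the log2 fold change was 0.06 ± 0.08 for Nfu_g_1_017550, with an adjusted p of 0.636, and 0.12 ± 0.21 for Nfu_g_1_016502, with an adjusted p of 0.715. IFI27L1 had the highest log2 fold change from 5 to 12 wph, 1.63 ± 0.63, but its adjusted p was 0.160.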

How the data were processed

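The authors deposited raw read counts per gene. The submitters' notes name bcl2fastq (1.8.4), TopHat2 (2.1.0) and featureCounts (1.5.0). Per the study's methods, alignment was to the assembly Nfu_20150522 and counting ignored strand, so antisense or overlapping partners cannot be told apart. Apart from strand, near-identical copies cannot be told apart either. CPM values were computed here from the deposited counts and the column totals. Age groups were compared by quasi-likelihood tests in edgeR (version 4.0.16, R 4.3.3; filterByExpr, TMM, 8 libraries per comparison, two-sided), with DESeq2 1.42.0, other scaling, no filter, 1 fit on 12 libraries and single libraries left out as alternatives. The procedure was tested on simulated counts. No pair of libraries had identical counts. Plots were made in Python 3.11.15 (matplotlib 3.10.9). Names are human orthologues from the study's supplementary tables, held for 5369 genes (20.1%), and no identifier matched the reference gene table directly. The study's methods report orthologues for more genes than that, so a gene without a name here may still have a human orthologue. The members and lists were chosen with earlier results of these data known. One member is not reported here by itself, though it stands in counts and sums over the members. Every value is given for the other named members, the 3 highest without a name and those that changed with age. Every value is also given for the 3 members at 0 in all GRZ libraries. The same holds for the 3 with the highest MZM-0410 means among the members with some GRZ counts but at most 3 per library. The others are given by range, and genes picked after their values were seen are marked or only illustrate a range.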

Additional observations from a re-analysis of the deposited data

Results flagged for a closer look

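In 9 of 124 groups of 4 libraries, 1 library stood apart from the other 3 by Dixon's test. In values that were not selected, chance flags about 1 in 20 groups, which is 6.2 here, and 16 groups could not be tested. The members were chosen by their highest GRZ and lowest MZM-0410 values, so this rate need not hold for them. GRZ replicate 2 was the high library for Nfu_g_1_008820 (3.81 CPM), Nfu_g_1_007949 (1.8 CPM) and Nfu_g_1_005767 (0.602 CPM). Other GRZ libraries were low for Nfu_g_1_016606 (replicate 1, 0.681 CPM) and Nfu_g_1_023768 (replicate 3, 0.0939 CPM). The GRZ libraries held 3 to 6 counts of Nfu_g_1_005767 and 1 to 4 counts of Nfu_g_1_023768, so both flags rest on few reads. At 12 wph, PRSS48 (Nfu_g_1_017344) was low in replicate 5 (6.78 CPM) and Nfu_g_1_024382 was high in replicate 1 (6.57 CPM). At 39 wph, Nfu_g_1_024382 was low in replicate 6 (2.41 CPM) and Nfu_g_1_010056 was high in replicate 9 (4.24 CPM).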

How the results depend on the processing

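With TMM scaling the rule took the same 35 genes. A limit at 0.25 times took 17 genes, a minimum mean of 5 CPM took 20 and no minimum took 464. MZM-0410 at 5 wph alone took 52, with 32 of the members among them. Leaving out single libraries took 34 to 44. That step can only lower the highest GRZ value or raise the lowest MZM-0410 value, so a member could be lost only through the minimum mean. With at least 1 count required in every MZM-0410 library, chosen after seeing the data, 32 remained. The 16 members at or under 3 counts in each GRZ library became 6 with a limit of 1 count and 4 among members with a mean of 5 CPM or more, and 16 to 17 without single GRZ libraries, also chosen after seeing the data. Without single libraries, 1 to 2 members rose from 5 to 12 wph, 0 to 1 from 12 to 39 wph and 3 to 5 from 5 to 39 wph, and 0 fell in each. DESeq2, the other scaling, no filter and the fit on 12 libraries kept all 8 calls, and no direction was reversed. No paired analysis was possible because the MZM-0410 age groups share no replicate numbers and the strain contrast was not tested. Members under 3 counts in a library cannot be ordered at this depth.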
